A study of Caenorhabditis elegans with 4 samples.

Results

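RNA polymerase II regions on chromosome II of *Caenorhabditis elegans* are described here in early embryos of N2, the wild-type laboratory strain, from hermaphrodites grown at 20 degrees Celsius. The members are all entries for chromosome II in a combined list of enriched regions, 1457 of 8121 in all. Chromosome was the only criterion for an entry, but the members were chosen with earlier results of these data known. Per the labels, the list rests on 2 ChIP libraries and on 2 input libraries of unprecipitated DNA. The antibody was 8WG16, a mouse monoclonal that binds the heptapeptide repeats of polymerase II. All libraries share strain, stage and formaldehyde crosslinking of whole embryos. The protocol text speaks of serum to GFP, but the antibody field of both ChIP libraries gives 8WG16. Nothing in the files allows a separate check of the stage or of the precipitated protein.

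Polymerase II transcribes protein-coding genes. It collects near gene starts and travels along the gene body, so that ChIP signal can mark a short stretch or an entire gene. Its largest subunit, AMA-1 in this worm, carries a long tail of heptapeptide repeats that is phosphorylated as transcription proceeds. In early worm embryos the first genes of the zygote are switched on while transcription is held back in the germline precursors. Worm autosomes have a central part with little recombination and many conserved genes, flanked by arms with more recombination, more repeats and more genes of fast-changing families. The left arm of chromosome II was taken here as all regions with a midpoint below 4.88 Mb, and the right arm as those from 12.02 Mb on.

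The list gives each region's first and last base on WormBase release WS180 and a q-value, which is a p adjusted for the many regions tested. Its first line stands at rank 48 of the authors' order, and the 47 stronger ranks were not analysed here, so "strongest" below means strongest among the listed regions. Where those 47 lie is unknown. Counts, widths, gaps and empty windows below are thus those of the listed regions too. The replicates are merged in it, so no value below has a replicate error. The depth of each library is unknown. ChIP and input read numbers were recovered from the q-values for 1455 of the 1457 regions, 301054 ChIP and 117475 input reads in all. A fold is the ratio of these numbers, and its interval is a 95% Clopper-Pearson interval that covers counting error only. Input reads are those used in the authors' test, scaled by them or not. The intervals treat them as counts, so if they were scaled, the intervals and the calls made from them are approximate. If they were not scaled, a fold also depends on the unknown depths of the libraries. The fold limits used below are then not absolute levels of enrichment. Regions were not assigned to genes, since the gene table at hand belongs to another assembly.

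Chromosome II carried Pol II regions from end to end, the first from 24507 to 25296 and the last from 15276535 to 15276638. Over the 15.25 Mb between them there were 95.5 regions per Mb, and 8.07% of the sequence was covered. The median width was 494 bp (quartiles 218 and 980 bp), the narrowest region being 1 bp and the widest 10113 bp. The median q-value was 5.35e-06, and 231 regions (15.9%) had a q-value under 1e-20, against 14.9% of the whole list. The median fold was 2.44, with quartiles of 2.00 and 3.15 and a range of 1.26 to 36. A region held 28 to 3791 reads of both kinds, with a median of 158. Among the 25% of regions with the fewest reads (28 to 83) the lowest listed fold was 1.86, whereas it was 1.26 among those with 310 reads or more.

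The arms and the centre differed in covered length and enrichment more than in the number of regions. The left arm held 417 regions (85.9 per Mb) and the right arm 322 (98.9 per Mb), against 718 in the centre (100.6 per Mb). Together the arms had 91.1 regions per Mb and the centre 100.6, a log2 ratio of −0.14. This direction depended on where the chromosome was divided, since with 3 equal parts of the span the log2 ratio of outer to central parts was 0.066. Covered length was 68.9 kb per Mb in the arms and 94.1 kb per Mb in the centre (log2 ratio −0.45). The arms thus made up 53.2% of the span, 50.7% of the regions and 45.4% of the covered length.

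**Figure D1:**
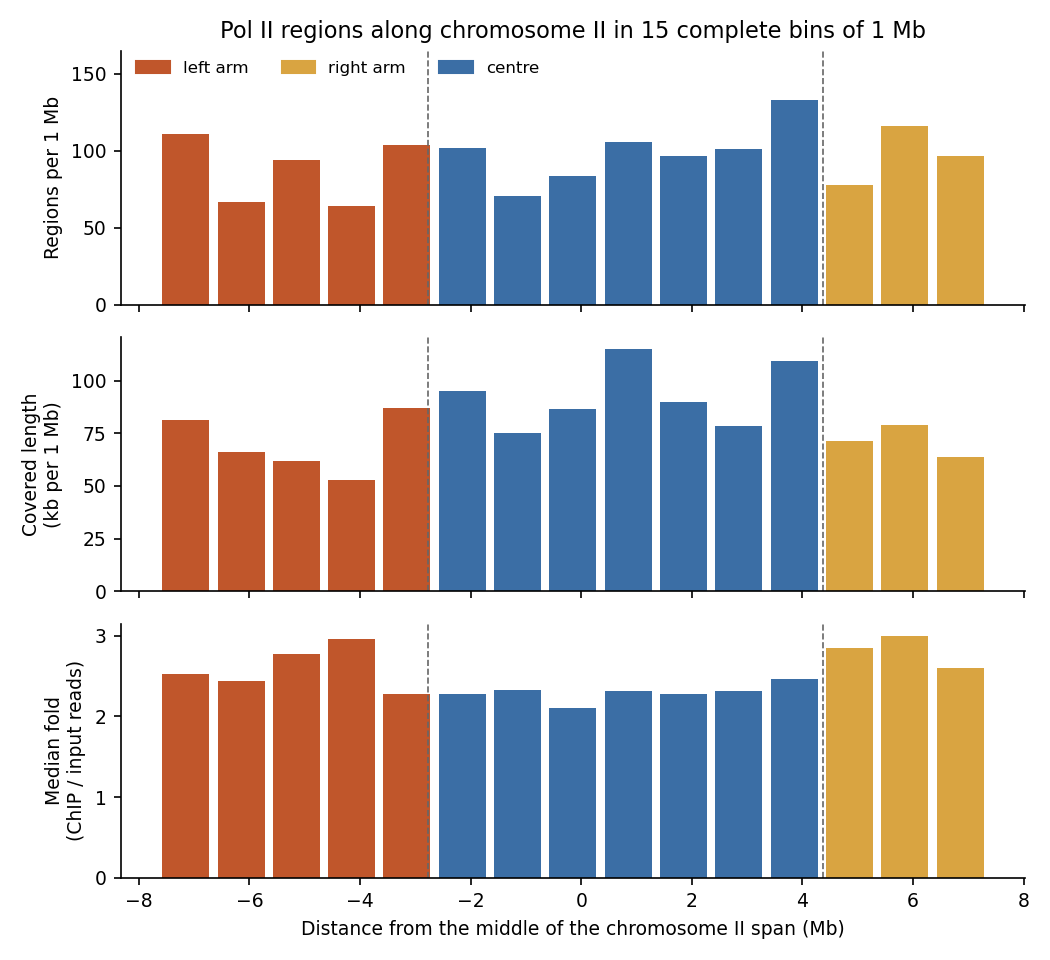
Number of regions, covered length and median fold of ChIP over input reads in the 15 complete 1 Mb bins of chromosome II, plotted by distance from the middle of its span in Mb. Bars are coloured by the part in which the bin's midpoint lies and dashed lines mark the arm boundaries. The median fold is between 2.10 and 2.46 in the centre bins and reaches 3 in the right arm.

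Bins of 1 Mb showed how far this varied along the chromosome. The 6 bins that lay wholly in the arms had 91.5 ± 21.8 regions and the 7 bins wholly in the centre had 99.1 ± 19.3 (SD over bins), so the counts overlapped widely. Covered length was 67.4 ± 10.8 kb in the arm bins and 92.7 ± 14.9 kb in the centre bins. The highest arm bin reached 81.2 kb and the lowest centre bin 75.2 kb. Median fold was 2.72 ± 0.23 in the arm bins and 2.30 ± 0.11 in the centre bins, and the lowest arm bin (2.44) was just below the highest centre bin (2.46, from 11 to 12 Mb). Bins that straddle a boundary are in neither group. The bin from 4 to 5 Mb, mostly left arm, had a median fold of 2.275, within the range of the centre bins, and 86.8 kb covered. That from 12 to 13 Mb, mostly right arm, had a median fold of 2.85 and 71.25 kb covered. Bins are not replicates, and no test was made over them. The bin with most regions was that from 11 to 12 Mb with 133, and the bin from 3 to 4 Mb held 64, the fewest of the 15 complete bins. The bin from 8 to 9 Mb had the most covered length, 114.8 kb in 106 regions.

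Regions in the arms were narrower than those in the centre. Median width was 448 bp in the left arm and 418 bp in the right arm, against 544.5 bp in the centre. Regions of 3 kb or wider numbered 29 in the arms (3.92% of arm regions) and 50 in the centre (6.96%). These broad regions made up 22.3% of the covered length in the arms and 33.4% in the centre. At the other end, regions of 20 to 199 bp made up 21.5% of arm regions and 15.04% of centre regions.

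Enrichment of ChIP over input was higher in the arms than in the centre, and highest in the right arm. The median fold was 2.55 in the left arm (quartiles 2.05 and 3.43) and 2.81 in the right arm (2.14 and 3.78), against 2.29 in the centre (1.92 and 2.85). In 5 of 6 width classes, from under 20 bp to 1000 to 2999 bp, the arms had the higher median, for example 2.58 in 139 arm regions and 2.23 in 136 centre regions of 1000 to 2999 bp. In regions of 3 kb or wider the order was the other way round, with 2.65 in the arms and 2.83 in the centre. With all regions cut into 4 equal classes by their reads, the arms had the higher median in each. It was 3.06 in the arms and 2.76 in the centre at 28 to 83 reads, and 2.37 and 2.14 at 84 to 158 reads. At 159 to 309 reads it was 2.22 in the arms and 2.115 in the centre, and at 310 to 3791 reads 2.63 and 2.42. Arm regions held a median of 130 reads of both kinds and centre regions 188. The list's q-value limit admits regions with few reads only at higher folds, and its part in the fold difference was not tested.

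**Figure D2:**
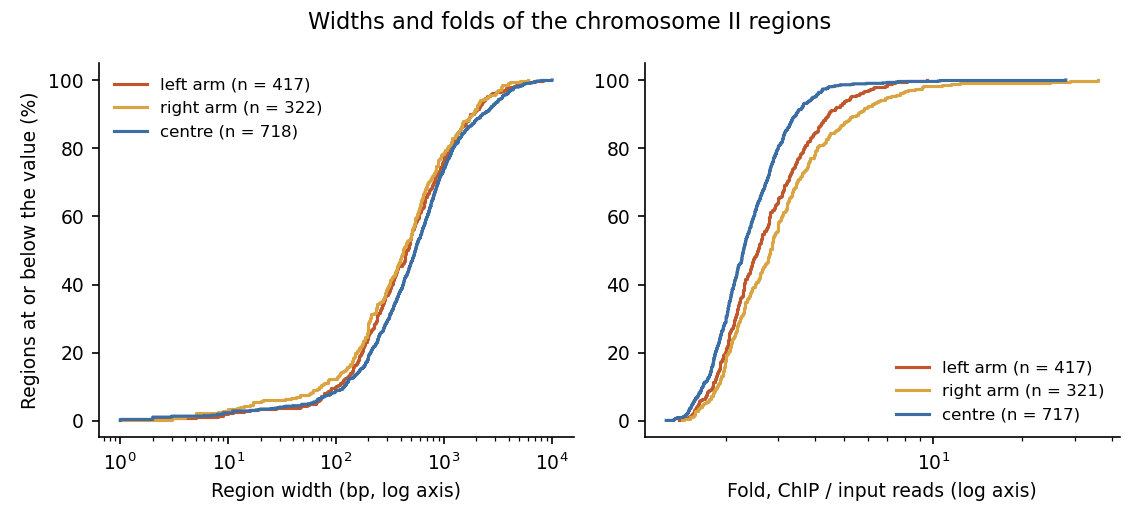
Cumulative share of chromosome II regions (in percent) against width in bp and against fold of ChIP over input reads, both on log axes, for the left arm, the right arm and the centre. The centre curve lies to the right for width (median 544.5 bp) and to the left for fold (median 2.29).

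Both read numbers were lower in the arms per length, the input more so. In regions of 1 kb or wider the median input was 84.8 reads per kb in 168 arm regions (quartiles 64.5 and 97.1) and 99.0 reads per kb in 185 centre regions (88.5 and 112.8). The median ChIP number was 208.8 reads per kb in the arms and 231 reads per kb in the centre. On the log2 scale the arms over the centre stood at −0.22 for input and −0.15 for ChIP reads. The log2 ratio of the median fold in these wide regions was 0.14, and in all regions it was 0.21. The part of the input level in the fold was not tested.

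The other autosomes showed the same direction in fold and width when divided at the same shares of their spans. The outer parts had the higher median fold on 5 of 5 autosomes, with a mean log2 ratio of 0.26 ± 0.08 (SD over chromosomes), and 0.21 on chromosome II. They had the narrower median width on 5 of 5, with a mean of −0.44 ± 0.11, and −0.29 on chromosome II. Covered length was lower in the outer parts on 5 of 5, with a mean of −0.26 ± 0.14, and chromosome II had the lowest ratio at −0.45. Input reads per kb were lower there on 5 of 5 as well, with a mean of −0.27 ± 0.10. Each of these 4 measures gave p = 0.0625 in a two-sided exact sign-flip permutation test over the 5 autosomes, the smallest it allows, and an adjusted p of 0.0833 over the family of 8 measures. They thus could not pass 0.05. The number of regions per Mb went the other way, higher in the outer parts on 4 autosomes and lower only on chromosome II. It did not pass (mean log2 ratio 0.07, exact permutation p = 0.3125). ChIP reads per kb, in regions of 1 kb or wider, were higher in the outer parts on 1 of 5 autosomes. Their mean log2 ratio was −0.08 ± 0.08 (exact sign-flip permutation p = 0.125, adjusted p = 0.143).

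**Figure D3:**
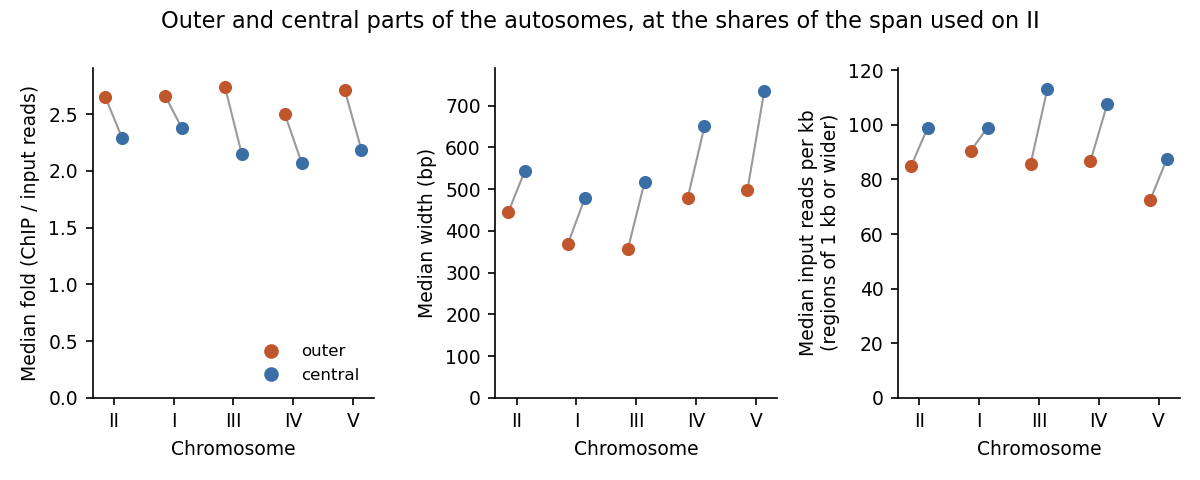
Median fold, median width in bp and median input reads per kb in outer and central parts of each autosome, chromosome II first, with lines joining the parts of 1 chromosome. Outer parts sit above central ones for fold and below them for width and input on all 5 autosomes.

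In this list strongly enriched regions made up a larger share of the right arm than of the left arm or the centre, a difference that was not tested. A region was called past a fold limit when the lower end of its 95% interval exceeded that limit. Intervals of shares below are exact binomial ones that cover counting error only and treat regions as independent, which neighbouring regions are not. For a limit of 2, 430 of the 1455 chromosome II regions were called (29.6%, exact 95% interval 27.2 to 32.0), against 27.5% of the whole list. By part these were 125 of 417 in the left arm (29.98%, interval 25.6 to 34.6) and 124 of 321 in the right arm (38.6%, 33.3 to 44.2), against 181 of 717 in the centre (25.2%, 22.1 to 28.6). For a limit of 4, 34 regions were called on chromosome II (2.34%, 1.62 to 3.25), against 1.79% of the whole list. Of these, 8 lay in the left arm (1.92%, 0.832 to 3.74) and 19 in the right arm (5.92%, 3.60 to 9.09), against 7 in the centre (0.976%, 0.393 to 2.00). The bin from 13 to 14 Mb alone held 12 of them, and the bin from 12 to 13 Mb held 5. Without the bin from 13 to 14 Mb the right arm had 7 of 206 (3.40%) and both arms together 15 of 623 (2.41%). The share past a limit of 4 was higher in the outer than in the central part on each of the 5 autosomes (exact sign-flip permutation p = 0.0625, the smallest possible, adjusted p = 0.0833).

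The 34 regions past a limit of 4 were from 3 to 5007 bp wide, with a median of 1314 bp and folds of 4.79 to 36. Of these, 21 were 1 kb or wider. In these 21 the median was 273.8 ChIP reads per kb and 48.6 input reads per kb, against 221.6 ChIP and 93.6 input reads per kb in all 353 regions of that width on chromosome II. Input was below the lower quartile of those 353 in 16 of the 21, and ChIP was above their upper quartile in 13. The fold chose these regions, so these values describe them and test nothing.

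The leading region by the lower limit of the fold lay in the right arm, from 13823953 to 13824863. Over its 911 bp there were 914 reads in ChIP and 37 in input. Its fold was 24.7 with an interval of 17.8 to 35.3. Its 1003 ChIP reads per kb were far above the upper quartile of 259.1 for chromosome II regions of 1 kb or wider, and its 40.6 input reads per kb were below their lower quartile of 79.2. The region itself is under 1 kb wide, and reads per kb can be higher in narrow regions, so these are unlike widths. A neighbour of 210 bp, from 13821987 to 13822196 and 1756 bp away, had a fold of 36 from 72 ChIP reads and 2 input reads, with an interval of 9.61 to 303. Another region close by, from 13852735 to 13853235, reached a fold of 10.7 (6.61 to 18.5). The 100 kb window that holds all 3, from 13800001 to 13900000, contained 22 regions with a median fold of 3.36, and 11 of these were past the limit of 2. The share past it was 29.6% on chromosome II and 27.5% in the whole list.

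The 10 highest regions by the lower limit of the fold were mostly short and mostly in the right arm. Their median width was 930.5 bp, with a range of 210 to 3019 bp, and 6 lay in the right arm, 1 in the left arm and 3 in the centre. All 6 of the right arm lay between 12.79 and 14.02 Mb. Besides the 3 just described they were the regions from 13320545 to 13321484 (fold 11.5, 8.04 to 16.9), from 14017884 to 14018494 (9.19, 6.37 to 13.7) and from 12786979 to 12789012 (7.89, 6.34 to 9.92). The left arm entered with the region from 2242568 to 2245586, 3019 bp wide, at a fold of 7.45 (6.05 to 9.24). Its neighbourhood was crowded, with 10 other regions within 10 kb.

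The 3 centre regions among these 10 had more input reads per kb than the 7 of the arms. One, from 5543385 to 5544738, had 773 ChIP and 74.6 input reads per kb (fold 10.4). Another, from 5844637 to 5845557, had 953 ChIP and 90.1 input reads per kb (fold 10.6). The region from 6967745 to 6968686 had 779 ChIP and 101.9 input reads per kb, a fold of 7.65 (6.17 to 9.56). The 7 regions of the arms had 9.52 to 52.4 input reads per kb, the lowest from 2 input reads in 210 bp. The fold that ranked these 10 regions is built from the input, so this is a description. In all regions of 1 kb or wider the quartiles of input overlapped, at 64.5 and 97.1 reads per kb in the arms and 88.5 and 112.8 in the centre. Both regions between 5.5 and 5.9 Mb stood alone, with no other listed region within 10 kb.

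**Figure D4:**
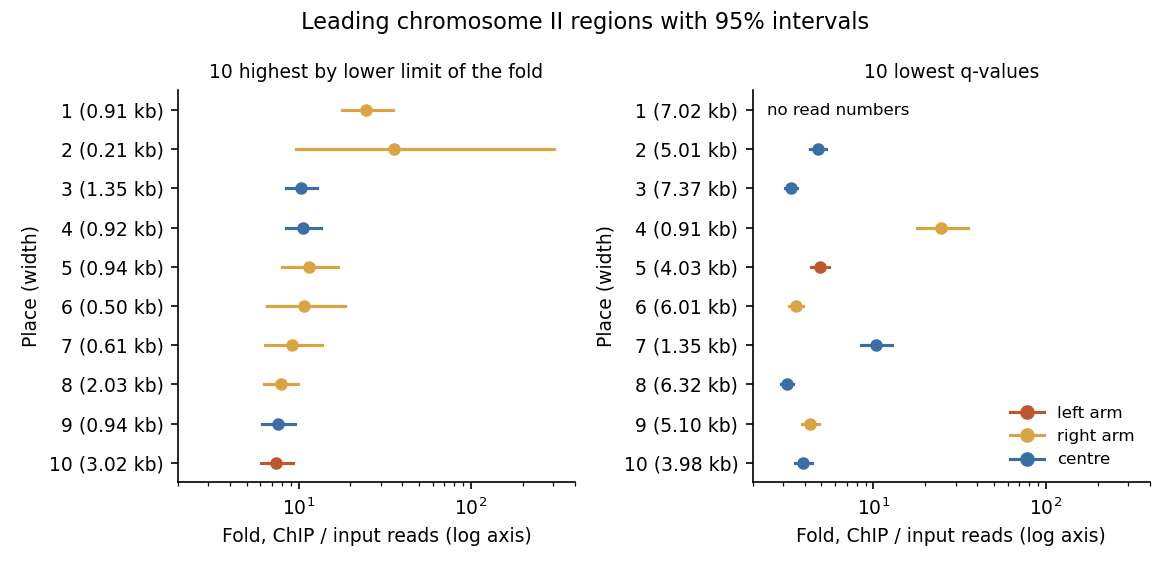
Fold of ChIP over input reads (log axis) for the 10 chromosome II regions with the highest lower 95% limit of the fold and for the 10 with the lowest q-values. Points are folds, bars are 95% Clopper-Pearson intervals, colours give the part, and the place is followed by the width in kb. The regions leading by the lower limit of the fold are mostly under 2 kb and in the right arm, and those leading by q-value mostly several kb wide with folds of 3.15 to 4.91.

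By q-value the order was different, and only 2 of the 10 strongest regions were also among the 10 leading by the lower fold limit. The strongest was the centre region from 10059944 to 10066962 (7019 bp, q = 1.55e-300), for which no read numbers could be recovered. The region from 9257608 to 9262614 followed (5007 bp, q = 5.19e-252). It had 2063 reads in ChIP and 431 in input (fold 4.79, 4.31 to 5.32). The region from 9294254 to 9301623, 31.6 kb further on, had q = 3.60e-236 and a fold of 3.34 (3.09 to 3.61) over 7370 bp. The right-arm region that led by the lower limit of the fold came at place 4, and 8 of the 10 were wider than 3 kb. Of the 10, 1 lay in the left arm, from 4587706 to 4591735 (fold 4.91, 4.35 to 5.55), 3 in the right arm and 6 in the centre. The 2 further ones of the right arm lay from 12987750 to 12993764 (fold 3.55, 3.24 to 3.90) and from 12211617 to 12216713 (4.32, 3.84 to 4.86). In the centre the list was completed by the regions from 11622352 to 11628671 (3.15, 2.90 to 3.42) and from 7808879 to 7812856 (3.93, 3.52 to 4.38). A q-value falls with the number of reads as well as with the fold, and wide regions hold more reads.

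The 5 widest regions were of 7.02 to 10.1 kb, and 4 of them lay in the centre. In the widest, from 8897034 to 8907146, 2623 reads were from ChIP and 1168 from input (fold 2.25, 2.09 to 2.41). The only one of the arms, from 1145274 to 1153587, held 1582 ChIP and 778 input reads (2.03, 1.87 to 2.22). The region from 9041106 to 9049099 had the lowest fold of the 5, at 1.83 (1.69 to 1.99). The remaining ones were the regions of 7370 and 7019 bp that also stood at places 3 and 1 by q-value.

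A small share of the regions held much of the ChIP reads, and nearly as much of the covered length. Among regions with read numbers, the 10% with the most ChIP reads, 146 in number, held 44.6% of the ChIP reads. They made up 40.3% of the covered length and had a median width of 3069 bp. The ranking by ChIP reads itself favours a high share, and the strongest region by q-value is not among them. They lay in the left arm in 29 cases, in the right arm in 28 and in the centre in 89. The arms held 42.9% of all ChIP reads and 40.4% of all input reads in the regions, while the centre held 57.1% and 59.6%.

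Spacing was uneven, with close groups of regions and long empty stretches, and the arms were more uneven than the centre. Of the 1456 gaps between neighbours 39.6% were under 1000 bp, the median was 1641 bp and the shortest was 201 bp. On each of the 4 other autosomes the shortest was 200 bp, so no autosome had a listed gap below that distance. Close gaps were about as common in the arms (40.5%) as in the centre (38.7%). Gaps of 50 kb or more numbered 40 in the arms and 25 in the centre, and took up 43.2% of the length of the arms and 27.2% of that of the centre. In the left arm alone they took up 47.0%.

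**Figure D5:**
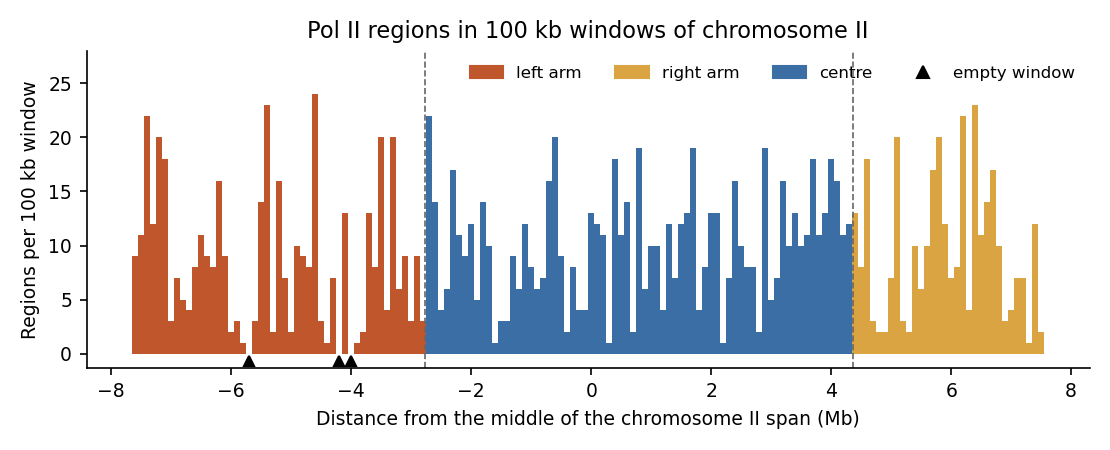
Number of regions in each of the 152 complete 100 kb windows of chromosome II, plotted by distance from the middle of the span in Mb and coloured by part, with triangles at empty windows and dashed lines at the arm boundaries. The 3 empty windows are in the left arm, and 10 of the 12 windows with 20 or more regions are in the arms.

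Counts per 100 kb window showed the same contrast. They ran from 0 to 24 in the arms, with a median of 8, and from 1 to 22 in the centre, with a median of 10. Windows with at most 2 regions made up 18.5% of the 81 arm windows and 8.45% of the 71 centre windows. Windows with 20 or more made up 12.3% of the arm windows and 2.82% of the centre windows. The fullest, from 3000001 to 3100000, held 24 regions with a median fold of 3.62, and 12 were past the limit of 2. It was followed by the windows from 14000001 to 14100000 and from 2200001 to 2300000 with 23 each, of which 7 and 11 were past that limit. In the window from 4100001 to 4200000 it was 1 of 20. The share past the limit was 29.6% on chromosome II and 27.5% in the whole list. By covered length the first window was in the centre, from 11000001 to 11100000, with 24.1 kb in 13 regions.

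The 5 longest gaps were all in the arms, 4 of them in the left. No region was listed between 1820870 and 2053149, a stretch of 232 kb. The next were 167 kb from 3124135 to 3291310, 150 kb from 3597738 to 3748204, 137 kb from 732611 to 869261 and 132 kb from 12811533 to 12943943. The second of these began 24 kb after the end of the fullest window. The longest gap of the centre was 117 kb.

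Chains of regions less than 1000 bp apart were common in arms and centre. Of the 1457 regions 883 (60.6%) lay in 306 such runs, and 574 had no neighbour that close. Runs of 4 or more numbered 34 in the arms and 24 in the centre. The longest run, of 11 regions, reached from 10059477 to 10076385 and contained the strongest region by q-value, while its other regions had a median fold of 1.90. Runs of 9 regions lay from 3078778 to 3088648, from 10989417 to 11013984 and from 13013357 to 13027346. The second of these, in the centre, was 83.6% covered over 24.6 kb and held 5708 ChIP and 2045 input reads. Runs of 8 lay from 1125486 to 1135435 and from 3066706 to 3073123, and the run from 3066706 had the highest median fold of the 6 runs, at 5.42 with a range of 2.55 to 9.50. It and a run of 9 regions lay 5.65 kb apart in the fullest 100 kb window.

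Set against the other autosomes as a whole, chromosome II lay near the middle of their range. It had 95.5 regions per Mb, against 96.7 ± 31.3 on the 4 other autosomes (SD over chromosomes). Median width was 494 bp, against 501 ± 97.0 bp, and median fold was 2.44, against 2.42 ± 0.09. Its share of regions past the limit of 4, at 2.34%, was the highest of the 5 autosomes, where the others ranged from 0.992% to 2.30%. Its share of gaps under 1000 bp, at 39.6%, was the lowest, the others ranging from 41.1% to 46.6%. With 1 chromosome against 4, an exact permutation over chromosomes cannot go below p = 0.2, and the 7 measures compared gave exact two-sided p-values from 0.4 to 1 and an adjusted p of 1 each. The sizes of these differences are thus given as values only.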

How the data were processed

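Chromatin immunoprecipitation with sequencing was done on 2 ChIP and 2 input libraries, and the authors deposited 1 list that combines them. Per the file headers the build is WormBase WS180, and every line gives PeakSeq as its source. For its version and settings, the read mapper, the depth and the combining of replicates, details were not given in the sources used here. What the authors deposited per region is its q-value, an adjusted p-value, up to 0.01, beside the first and last base. The 47 ranks above the first listed region are not analysed here.

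Read numbers were recovered as follows. Neighbouring lines of equal p gave the ranks (2665 pairs), the product of q and rank divided by 18572 tested regions gave p, and each p was matched to exact tails of the binomial with even odds (0.5), within 1e-09 in the natural logarithm. Of 8121 regions, 8116 matched exactly 1 pair of read numbers, and 0 did so with a total lower or higher by 1. The steps were tested on simulated data. On chromosome II 2 regions have no read numbers and are left out of every fold.

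Spans run from the first to the last listed base. Bins of 1 Mb and windows of 100 kb take regions by midpoint. Chromosome II was compared with the 4 other autosomes, and outer with central parts over 5 autosomes, by exact two-sided permutation tests over chromosomes, adjusted by the Benjamini-Hochberg method within each family (7 and 8 measures). Outer parts took the same 31.8% and 21.3% of each span as on chromosome II. Named regions are the 10 lowest q-values, the 10 highest lower limits of the fold, the 5 widest, the 5 longest gaps, the 5 runs with most regions (6 with a tie), and the extreme bins and windows. Members, boundaries and lists were chosen with earlier results of these data known. Alternatives concerned boundaries, region filters, merging, units, fold limits and distances. Python 3.11.15, numpy 2.4.6, scipy 1.17.1, pandas 2.3.3 and matplotlib 3.10.9 were used.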

Additional observations from a re-analysis of the deposited data

How the results depend on the processing

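In 12 of 26 alternatives, over 8 results, values kept their direction and stayed within the counting interval or on the same side of 0.05. The arms-to-centre log2 ratio of region density, −0.14, was −0.45 for covered length and 0.066 with 3 equal parts of the span. That of the fold, 0.21, was 0.13 in regions with at least 100 reads and 0.14 in regions of 1 kb or wider. The cause was not tested. The width ratio kept its direction in 4 of 4 alternatives. The difference in density between chromosome II and the other autosomes, −1.20 per Mb, became 0.819 kb per Mb for covered length, 12.9 per Mb when X joined the other chromosomes, 0.449 in the stronger 50% of the list and 2.84 with neighbours within 1000 bp merged, with exact permutation p-values of 0.833 to 1. The share past the fold limit, 29.6%, was 6.94% for a limit of 3 and 74.6% for the ratio itself above 2. The share of gaps under 1000 bp, 39.6%, was 25.3% under 500 bp and 53.9% under 2000 bp. These 4 shares differ by construction. Over the autosomes the outer-to-central log2 ratio of density, 0.07, became −0.263 for covered length, and that of the fold, 0.26, was 0.226 with X (exact permutation p = 0.0312, which 6 chromosomes allow). The alternatives on regions of 1 kb or wider, without the bin from 13 to 14 Mb, and on the fold over chromosomes were chosen after seeing the data. No paired analysis was possible because replicates are merged in the list, which also prevents leaving 1 out. Regions with q above the limit are not listed, so low enrichment and few reads cannot be told apart there.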

Other observations

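Of the chromosome II regions, 56 (3.84%) were narrower than 20 bp, 32 in the arms and 24 in the centre. They had a median fold of 3.22, with quartiles of 2.82 and 4.36, against a median of 2.25 in regions of 500 to 999 bp. This contrast cannot be read as a property of narrow regions, since the list's q-value limit admits regions with few reads only at higher folds. The lowest listed fold was 1.86 at 28 to 83 reads and 1.26 at 310 to 3791 reads. The narrow regions named below hold few reads, and the part of the limit in the contrast was not tested. Among the regions narrower than 20 bp, the one with the highest lower limit of the fold was chosen after its value was seen. It was a 3 bp region in the right arm, from 13677436 to 13677438. That region had 29 ChIP reads and 1 input read, with an interval of 4.81 to 1184. A 9 bp region in the centre, from 7572719 to 7572727, had 28 ChIP reads and 1 input read. Such regions hold more reads than bases, so reads per kb were given for regions of 1 kb or wider and for the leading regions alone.

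Close neighbours resembled each other in fold and distant ones did not. Across 573 pairs of neighbouring regions less than 1000 bp apart, the Spearman correlation of the 2 folds was 0.34. It was 0.10 across 542 pairs from 1000 bp to under 10 kb apart and −0.02 across 337 pairs 10 kb or more apart. Neighbours share libraries and local input depth, pairs share regions, and these values are a description.

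The first listed region of the chromosome held 164 ChIP and 80 input reads (fold 2.05, 1.56 to 2.71), and the last 36 ChIP and 7 input reads (5.14, 2.26 to 13.7).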
